A study of Mus musculus with 3 samples.

Results

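The column labelled miR-17~92Hi (here Hi) was compared with the column labelled miR-17~92Med (Med), gene by gene and then in the order of genes along the mouse chromosomes. Both hold mRNA levels of CT26, a mouse colon carcinoma line. Each came from cells that had taken up the PIG-miR-17~92 vector, survived puromycin, been sorted for GFP and been grown out from single cells in medium with 10% serum. The labels differ only in the level of the microRNA cluster that they state, medium or high. The remaining column, miR-Ctrl, came from cells with the vector of a control microRNA and was not used here. Every expressed gene is a member of the comparison: the level of a gene is the mean of its single-gene probe sets, and a gene counts as expressed where the mean of its Med and Hi levels reached the median over all named genes, 6.966 on the log2 scale. This kept 9969 of 19938 genes measured by 35556 probe sets.

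According to the design text each group comprised 3 subclones, yet the table gives 1 column to a group. The sources used here do not say whether a column is 1 subclone, pooled RNA or a mean. Where 2 levels are given for a gene, Med comes before Hi. No difference has a measured error, no test was possible, and the words higher and lower describe these columns alone. Clonal lines can differ from each other apart from what they were transfected with, and with 1 column a group this cannot be told apart from the level of the cluster. DNA was not measured.

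The miR-17~92 cluster is a polycistronic transcript that is cut into several microRNAs. Each mature microRNA guides a silencing complex to mRNAs that pair with its seed, the bases at the start of the molecule, and the paired mRNA is translated less and often degraded. The cluster is known as an oncogenic one that favours proliferation and survival. The RefSeq sequences of its 6 main mature products are given because the columns are labelled by their level; they lie on the plus strand of chromosome 14, from chr14:115043684-115043706 for miR-17-5p to chr14:115044476-115044496 for miR-92a-3p (GRCm38.p6). Capitals mark the seed, bases 2 to 8.
mmu-miR-17-5p: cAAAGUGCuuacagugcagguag
mmu-miR-20a-5p: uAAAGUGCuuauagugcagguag
mmu-miR-18a-5p: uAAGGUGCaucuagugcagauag
mmu-miR-19a-3p: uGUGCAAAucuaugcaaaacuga
mmu-miR-19b-3p: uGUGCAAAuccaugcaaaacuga
mmu-miR-92a-3p: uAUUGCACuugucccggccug
miR-17-5p and miR-20a-5p share a seed, as do miR-19a-3p and miR-19b-3p, while miR-18a-5p and miR-92a-3p have seeds of their own. The array held probe sets for the locus: Mir17hg, the host gene, read 6.02 in both columns, Mir17 read 5.55 in both, and Mir18 read 6.74 in Med and 6.77 in Hi. Mir19a (4.72 and 4.73), Mir19b-1 (5.46 in both) and Mir20a (4.29 in both) were equally close. All lay below the expression filter, and the sources used here do not say whether these probe sets detect the vector's transcript, so they give no check of the labels.

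The labelled cell type was set against marker genes. Of 6 epithelial markers, 3 were expressed: Krt18 (11.41 in Med, 12.28 in Hi), Krt19 (7.50 and 7.87) and Krt8 (7.28 and 7.32), while Epcam (5.14 in both) and Cdh1 (6.26 in both) were below the filter. None of 5 colon markers (Cdx2, Vil1, Krt20, Lgr5 and Muc2) reached it, so the colon origin rests on the label. Of the fibroblast markers, Pdgfra (9.79 and 10.27), Col1a1 and Col3a1 were expressed, and Dcn and Lum were not. Every measured T cell, NK cell, B cell and endothelial marker was below the filter. In bulk RNA such as this, fewer cells of a type and less RNA per cell cannot be told apart.

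Most genes were nearly equal in Hi and Med. Of the 9969 expressed genes, 4636 (46.5%) had identical values in both columns (within 1e-06 on the log2 scale, here and in later counts), 3199 (32.1%) were lower in Hi and 2134 (21.4%) were higher. Among the unequal genes the median absolute difference was 0.16 on the log2 scale, and the 95th percentile was 0.81. At least 2-fold higher in Hi were 73 genes (0.732% of those expressed), at least 2-fold lower were 95 (0.953%), and together these 168 genes made up 1.69%. At 4-fold there were 15 higher and 10 lower genes. As a gauge of noise, none of 1194 olfactory and vomeronasal receptor genes was 2-fold apart. Their differences had an SD of 0.09 over genes, but their median level of 4.51 was far below that of the expressed genes. Only 4 of the 168 genes had several probe sets; in all 4 the probe sets lay on the same side, and in 2 of them every probe set was 2-fold apart.

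The 73 higher genes had a median level of 7.82 in Med and 9.61 in Hi, and 21 of them read below the filter value in Med. The 95 lower genes went from a median of 9.49 in Med to 8.002 in Hi, and 8 read below the filter value in Hi. The higher set thus held more genes near the floor of the array in its low column than the lower set did. Genes at the edge of the threshold were Ephx1 (1.004) and Megf10 (1.005) just inside and Spint2 (0.996) and Ext1 (0.98) just outside on the higher side. On the lower side Cenph (-1.003) and Antxr2 (-1.01) were just inside, and Srpr (-0.99) and Topbp1 (-0.99) just outside.

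**Figure D1:**
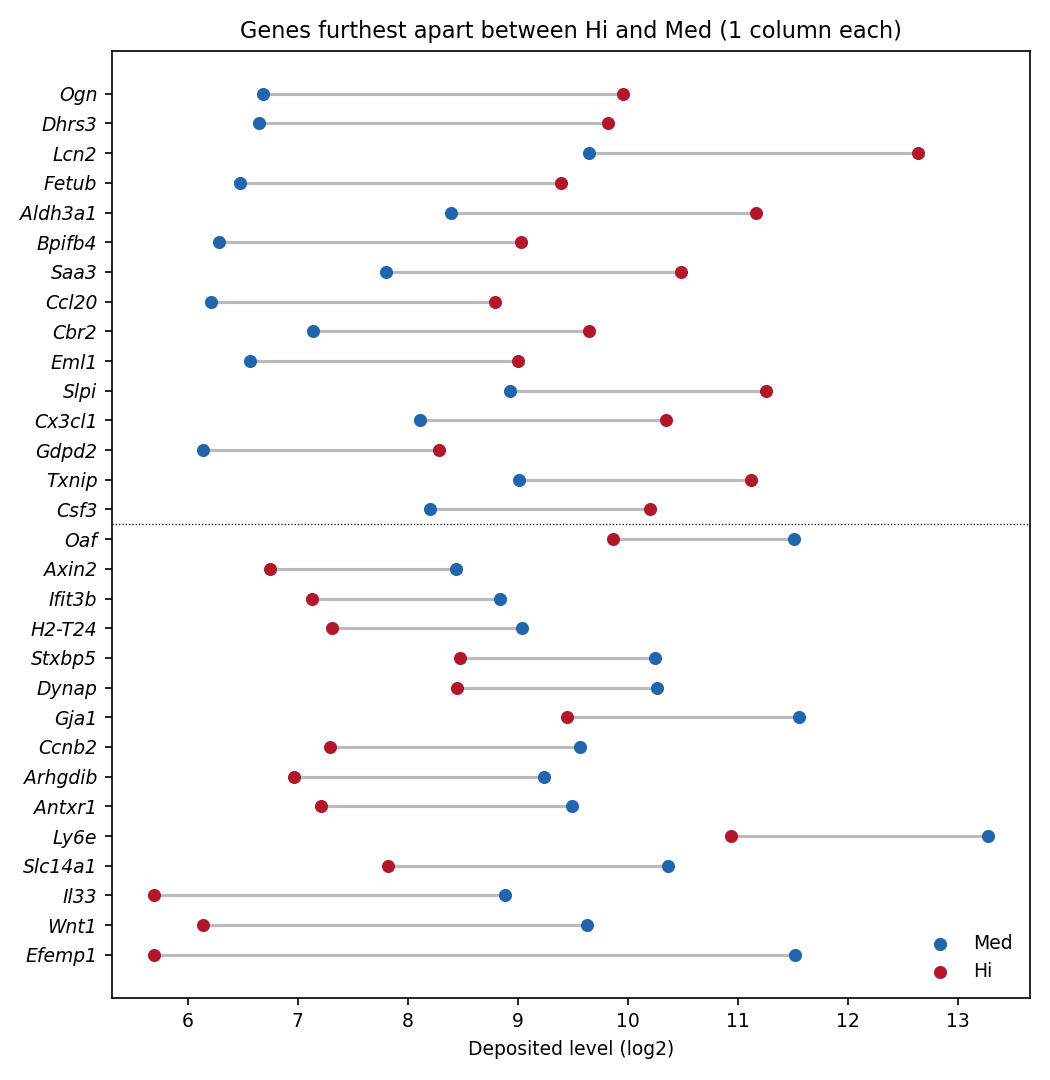
Levels on the deposited log2 scale of the 15 genes furthest above and the 15 furthest below in Hi, clone-named genes left out, with 1 point for each column. Efemp1 has the longest bar, from 11.52 in Med to 5.70 in Hi, and the longest on the higher side is Ogn, from 6.68 to 9.96.

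The gene furthest apart was Efemp1, which codes for the matrix glycoprotein fibulin-3. It read 11.52 in Med and 5.70 in Hi, a difference of -5.82 or 56.5-fold. The next were Wnt1, a secreted Wnt ligand, at 9.63 and 6.14 (-3.49), and Il33, an alarmin cytokine, at 8.88 and 5.69 (-3.19). These 3 genes were well expressed in Med and under the filter value in Hi. Other large losses were Slc14a1, a urea transporter (10.36 to 7.82), Ly6e, an interferon-induced surface protein (13.27 to 10.93), and Antxr1, an anthrax toxin receptor that binds collagen (9.49 to 7.21). Arhgdib (9.24 to 6.97), Ccnb2, cyclin B2 (9.56 to 7.29), and Gja1, connexin 43 (11.55 to 9.44), were also more than 4-fold lower. So was the clone-named gene AA467197 (9.43 to 7.39), which makes up the 10.

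On the higher side the gene furthest apart was Ogn, osteoglycin, a small leucine-rich proteoglycan, at 6.68 in Med and 9.96 in Hi (3.27, or 9.67-fold). Dhrs3, a retinaldehyde reductase, read 6.65 and 9.82 (3.17). Lcn2, lipocalin-2, which binds bacterial siderophores, read 9.65 and 12.63 (2.98). Eml1, a microtubule-associated protein, read 6.56 and 8.997, and Gdpd2, a glycerophosphodiester phosphodiesterase, 6.14 and 8.29. Txnip, the thioredoxin-binding arrestin, read 9.01 and 11.12. Ogn, Dhrs3, Eml1 and Gdpd2 were below the filter value in Med, whereas Lcn2 and Txnip were plainly expressed in both columns.

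By function, the higher genes fell into several groups, which were assigned by hand with the values known and so carry no test. Defence proteins of mucosa and the acute phase made up 8 of the 73. Beside Lcn2 they were Saa3, an acute-phase apolipoprotein (7.80 to 10.48), Slpi, a leukocyte protease inhibitor (8.93 to 11.25), Bpifb4 (6.28 to 9.02), Fetub, fetuin-B (6.47 to 9.39), Lbp, the lipopolysaccharide-binding protein (6.74 to 8.36), Kng2, a kininogen (6.45 to 7.74), and Wfdc2 (11.15 to 12.32). Of 38 measured members of the wider list for this theme, 11 passed the expression filter, and 4 of these (Bpifb4, Fetub, Lbp and C1ra) read below its value in Med. Those 4 passed only through their level in Hi and so had to be higher. The other 7 were higher as well. Of the 11, 7 were 2-fold higher (63.6%, against 0.732% over all expressed genes), but Bpifb4, Fetub and Lbp are among them. The list was also written with earlier results of these data known, so this share carries no test.

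Chemokines and colony-stimulating factors added 5 genes. Ccl20, which draws cells that carry Ccr6, read 6.22 and 8.79, and Cx3cl1, the membrane-bound fractalkine, read 8.11 and 10.34. The neutrophil chemokines Cxcl5 (10.75 and 12.65) and Cxcl1 (11.17 and 12.23) were already high in Med. Csf3, the granulocyte colony-stimulating factor, read 8.20 and 10.20. In the list of cytokines and colony-stimulating factors, 3 of 9 expressed members were higher, 3 lower and 3 identical, with a median of 0. There 1 member was 2-fold higher and 1 was 2-fold lower. The latter, Il33, passed only through its level in Med and so had to be lower. Of 10 expressed chemokines 8 were higher (80%, against 21.4% over all expressed genes), 2 were lower and the median was 0.70. The 4 that were 2-fold higher made up 40%, against 0.732% over all. Ccl20 read below the filter value in Med, passed only through its level in Hi and so had to be higher. Ccl2 (10.07 to 10.93) was among the higher ones short of 2-fold.

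Oxidoreductases and detoxifying enzymes were the next group, with 11 genes. Aldh3a1 (8.40 to 11.16) and Aldh3b1 (9.62 to 10.93) oxidise aldehydes, Cbr2 (7.14 to 9.65) reduces carbonyls, and Rdh10 (9.35 to 10.67) makes retinaldehyde from retinol. Idh1, cytosolic isocitrate dehydrogenase, read 9.98 and 11.88, and Fmo1, a flavin monooxygenase, 7.08 and 8.86. The glutathione transferase Gstm1 (10.12 to 11.24), the alcohol dehydrogenase Adh7 (7.64 to 8.66) and the epoxide hydrolase Ephx1 (8.36 to 9.37) differed less. Of 24 expressed members of the retinoid, aldehyde and carbonyl list, 13 (54.2%) were higher, 6 (25%) lower and 5 identical (median 0.08), against 21.4% higher and 32.1% lower over all. It had 6 members 2-fold higher (25% against 0.732% over all) and 0 lower; Dhrs3 was the only member below the filter value in Med. In the Nrf2, glutathione and antioxidant list 12 of 31 were higher and 12 lower.

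Another 13 genes code for matrix proteins, TGF-beta partners and IGF-binding proteins. Thbs1, thrombospondin-1, which activates latent TGF-beta, read 10.24 and 11.87. Ccn2, a matricellular TGF-beta response gene, read 7.58 and 8.82, the ligand Tgfb2 6.88 and 7.99, and Ltbp2, a latent TGF-beta-binding family protein, 9.03 and 10.14. Igfbp7 (7.41 to 8.79), Igfbp6 (9.08 to 10.14), the transglutaminase Tgm2 (9.21 to 10.33) and the integrin chain Itgb5 (10.27 to 11.41) belong here too. The TGF-beta list as a whole had 16 of 34 members higher (47.1%) and 11 lower (32.4%), with a median of 0. Over all expressed genes 21.4% were higher and 32.1% lower, but 46.5% were identical, against 20.6% of this list. The housekeeping list, with 22 expressed members, had 40.9% higher and 36.4% lower, also with a median of 0. Eng, Id3 and Tgfb2 passed the filter only through their level in Hi and so had to be higher. Smad6 passed only through Med and so had to be lower. The 4 members of the TGF-beta list that were 2-fold apart (11.8%, against 0.732% 2-fold higher over all) are Thbs1, Ccn2, Tgfb2 and Ltbp2.

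Further higher genes were receptors and signalling proteins (12), among them the death receptor Fas (6.96 to 8.47), the interferon receptor chain Ifnar2 (9.10 to 10.30), Egfr (8.23 to 9.48), App (7.85 to 9.61) and the kinases Pim2 (8.19 to 9.93) and Plk2 (7.39 to 8.73). Insig1 (9.99 to 11.21) and Sqle (8.71 to 10.00) act in sterol synthesis and its feedback. Of 34 expressed genes of cholesterol and fatty acid synthesis, 15 (44.1%) were higher, 9 (26.5%) lower and 10 identical (median 0). In the housekeeping list 40.9% were higher and 36.4% lower. The transcription regulators Foxc1 (7.24 to 9.11), Zfpm2 (7.60 to 8.83), Trps1 (8.75 to 9.84) and Ssbp2 (9.27 to 10.30) complete the grouped genes, and 18 higher genes were left without a group.

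In a list of 38 expressed genes that have been reported as targets of the cluster, 11 genes (28.9%) were higher, 12 (31.6%) lower and 15 identical (median 0), against 21.4% higher and 32.1% lower over all expressed genes. The 5 members that were 2-fold apart (Txnip, App, Thbs1, Ccn2 and Zfpm2) were all higher in the column labelled with the higher level of the cluster. They made up 13.2% of the list, against 0.732% of all expressed genes that were 2-fold higher. Like the other lists, this one was written from general knowledge with earlier results of these data known, so its shares carry no test.

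**Figure D2:**
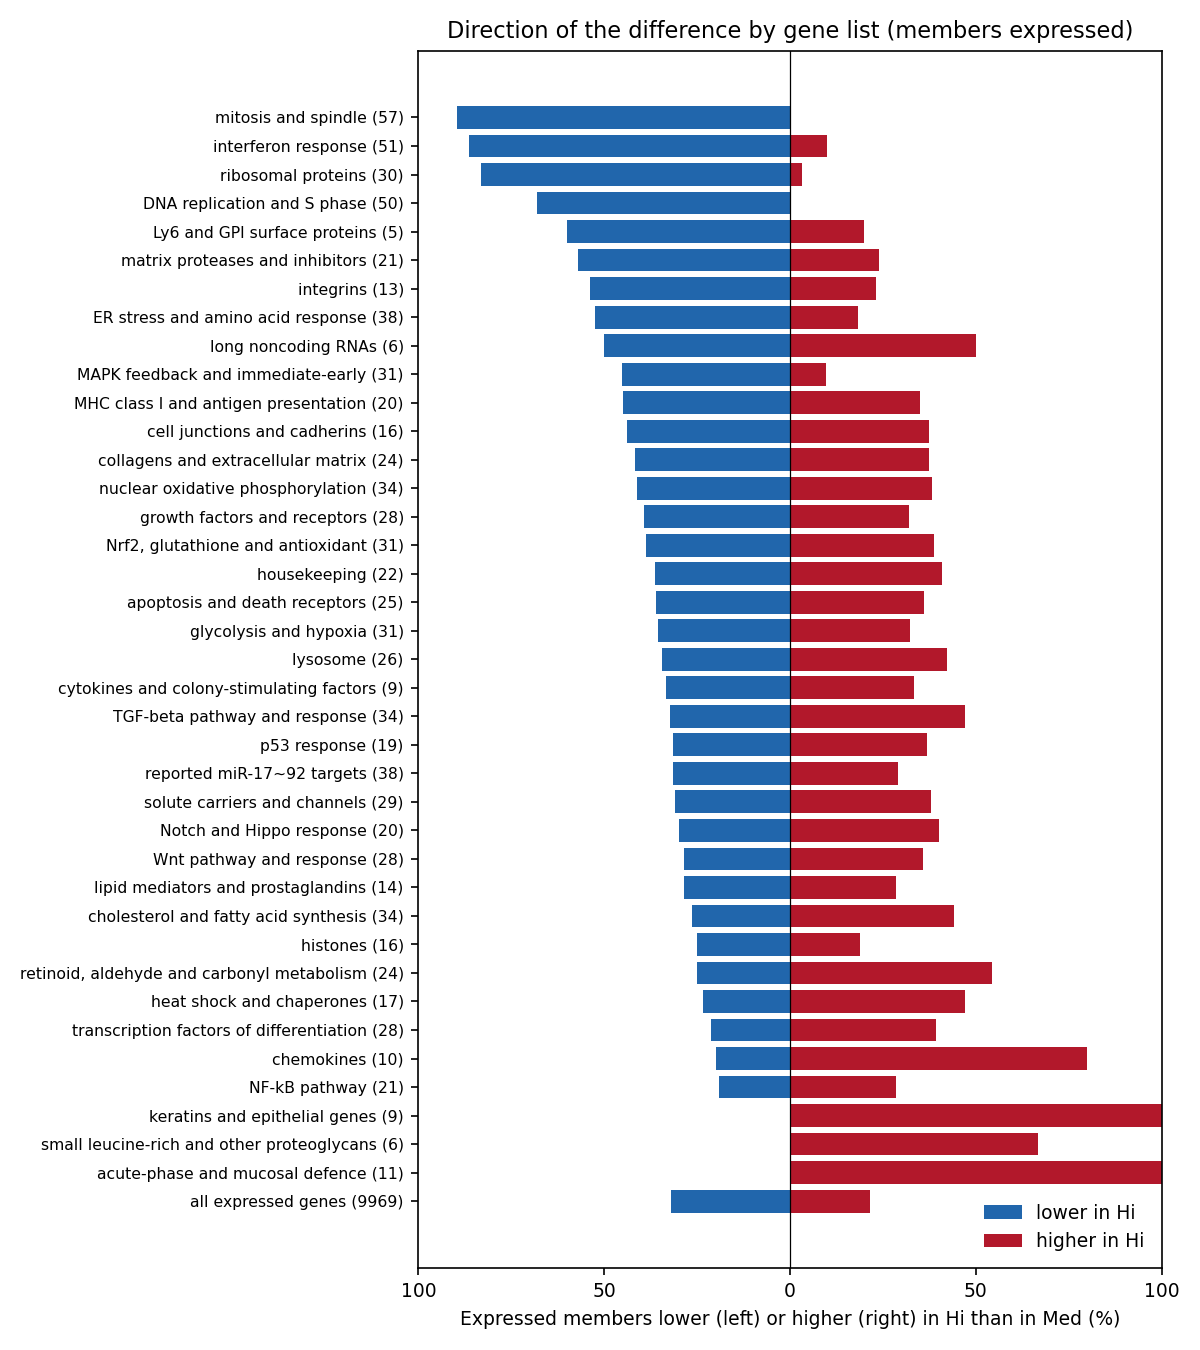
For gene lists with at least 5 expressed members, the actin cytoskeleton list left out, the percentage lower in Hi (bars to the left) and higher in Hi (bars to the right) is drawn, with the number of expressed members in brackets and all 9969 expressed genes at the bottom. Mitosis and spindle genes extend furthest to the left (51 of 57), whereas keratins and epithelial genes (9 of 9) and acute-phase genes (11 of 11, of which 4 passed the filter only through Hi) lie wholly on the right.

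Among the lower genes, the group with most members was cell division and DNA replication, with 17 of 95. Bub1 (10.25 to 8.81), Mad2l1 (10.27 to 9.26), Ttk (7.83 to 6.77) and Zwilch (8.66 to 7.50) act in the spindle checkpoint. Sgo1 (8.32 to 7.14), Cenpq (8.48 to 7.04) and Cenph (8.21 to 7.202) work at centromeres, and Kif15 (8.64 to 7.45), Haus6 (8.57 to 7.48), Sass6 (7.99 to 6.75) and Cep295 (8.37 to 7.28) at spindles and centrioles. Mastl (9.49 to 8.32) is a mitotic kinase, Anln (9.98 to 8.90) a cytokinesis protein, E2f8 (9.57 to 8.002) a repressor of the E2F family and Tipin (8.99 to 7.89) a replication fork protein.

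This group was the tip of a broader difference. Of 57 expressed genes in the mitosis and spindle list, 51 were lower (89.5%), 6 identical and 0 higher, with a median of -0.43. Over all expressed genes 32.1% were lower and 21.4% higher. Kif20b and Ttk read below the filter value in Hi, passed only through Med and so had to be lower. In the DNA replication list 34 of 50 were lower (68%) and 0 higher, at a median of -0.21, although no member reached 2-fold. Gins1 and Gins3 likewise passed only through Med. The largest differences were those of the primase Prim1 (8.91 to 8.06) and the polymerase subunit Pole2 (9.34 to 8.51). Ribosomal protein genes were lower in 25 of 30 cases by a median of only -0.11, which became -0.04 after quantile normalization of the columns. That scaling moved the median of all expressed genes to 0.03.

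Interferon-response and other immune genes formed a group of 16 lower genes. Ifit3b (8.83 to 7.13), Ifit2 (9.87 to 8.72) and Ifit3 (11.48 to 10.39) are interferon-induced RNA-binding proteins, Gbp7 (10.32 to 9.25) is a guanylate-binding GTPase and Ifi205 (10.49 to 9.32) a DNA sensor family member. Sp100 (11.02 to 9.51) is a nuclear body protein and Samhd1 (11.14 to 10.09) a nucleotide hydrolase that restricts viruses. H2-T24, a non-classical MHC gene, read 9.04 and 7.31, and Clec2d, a ligand of NK cell receptors, 9.86 and 8.23. In the interferon list 44 of 51 expressed members were lower (86.3%, against 32.1% over all expressed genes) and 5 higher, with a median of -0.41. In it 8 genes (15.7%) were 2-fold lower, against 0.953% over all. The MHC and antigen presentation list was mixed, with 9 of 20 lower and 7 higher.

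Cd68, counted in this group, is also a marker of myeloid cells and read 9.12 in Med and 7.67 in Hi. The other 5 myeloid markers, Ptprc (5.63 in both) among them, were below the filter in both columns. The log2 levels of all 6 summed to 35.6 in Med and 34.2 in Hi, and Cd68 alone was lower: Adgre1 read 4.63 and 4.70, and the other 4 were identical. Members of the Ifit, Gbp and Ly6 families resemble each other in sequence, so probe sets may read more than their own gene.

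Wnt pathway genes were few, and all of those 2-fold apart were lower: beside Wnt1 there were Axin2, a feedback inhibitor and standard response gene of the pathway (8.44 to 6.75), Apcdd1, a membrane inhibitor (9.23 to 7.95), and the ligand Wnt7b (9.29 to 8.24). These 4 were 14.3% of the 28 expressed members of the Wnt list, against 0.953% lower over all. Wnt1 and Axin2 read below the filter value in Hi, passed only through Med and so had to be lower. Of the 28, 10 were higher, 8 lower and the median was 0. Wnt6, 1 of the higher members, passed only through its level in Hi and so had to be higher. The secreted inhibitor Notum read 7.63 and 8.48. Matrix, adhesion and surface proteins made up 15 lower genes, with Efemp1, Antxr1 and Gja1 in front. Cdh2, N-cadherin (9.95 to 8.92), Nt5e, the ectonucleotidase CD73 (11.07 to 9.83), Plod2, a collagen lysyl hydroxylase (9.81 to 8.79), and the metalloproteases Adamts7 (9.71 to 8.22) and Adam8 (9.04 to 7.97) were among the rest. Keratins and epithelial genes were higher without reaching 2-fold: all 9 expressed members were higher, with a median of 0.34, led by Spint2 (8.06 to 9.06), Krt18 (11.41 to 12.28) and the transcription factor Elf3 (7.22 to 8.03).

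Regulators of small GTPases, the cytoskeleton and vesicles gave 7 lower genes, among them Arhgdib, Arhgap29 (8.16 to 6.80), Arhgef3 (9.59 to 8.47) and Stxbp5, a syntaxin-binding protein (10.25 to 8.48). Metabolism and transport gave 10, such as Cth, cystathionine gamma-lyase (9.05 to 7.61), and Upp1, uridine phosphorylase (10.26 to 8.83). Receptors, kinases and transcription factors gave 8, with the growth factor receptor Fgfr1 (11.36 to 10.20), the kinase Ptk2b (8.92 to 7.71) and the transcription factor Tcf12 (10.83 to 9.75). A further 18 lower genes were left without a group.

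Promoters from RefSeq, 250 bases before to 50 after each gene's start, were searched on both strands for short motifs. They were at hand for 55 of the 73 higher genes, 71 of the 95 lower genes and 8070 of all expressed genes. The core of the interferon-stimulated response element, GAAA and again GAAA with any 2 bases between, was in 5 of 12 promoters of the lower interferon and immune group (41.7%: Ifit3b, Ifit3, Ifi205, Gbp7 and Clec2d), against 2.78% of expressed genes and 3.49% of all promoters in the table. The stretches below come from chr19:34583329-34583428, chr19:34607757-34607856 and chr3:142530236-142530335 (plus strand, GRCm38.p6), with the motif, here on the reverse strand, in capitals.
Ifit3: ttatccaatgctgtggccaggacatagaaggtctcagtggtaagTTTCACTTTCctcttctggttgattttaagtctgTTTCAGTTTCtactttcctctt
Ifit3b: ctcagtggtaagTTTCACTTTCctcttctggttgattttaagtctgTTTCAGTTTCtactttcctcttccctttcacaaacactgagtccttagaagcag
Gbp7: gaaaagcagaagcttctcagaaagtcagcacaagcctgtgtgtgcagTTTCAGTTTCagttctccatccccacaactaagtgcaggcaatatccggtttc
Ifit3 and Ifit3b are neighbours with the same pair of motifs, inside a run of 68 bases that their printed stretches share letter for letter.

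In the cell division group the cell cycle homology region, TTTGAA, was in 7 of 15 promoters (46.7%: Ccnb2, E2f8, Sass6, Kif15, Cep295, Anln and Ttk), against 11.1% of expressed genes and 18.1% of all promoters. The CCAAT box, CCAAT, was in 11 of these 15 (73.3%) against 38.7% of expressed genes and 37.9% of all promoters. The 3 promoters shown are genes of chromosome 9, at chr9:70421535-70421654 on the minus strand and at chr9:83834609-83834708 and chr9:122950981-122951080 on the plus strand. Capitals mark both motifs, which do not overlap.
Ccnb2: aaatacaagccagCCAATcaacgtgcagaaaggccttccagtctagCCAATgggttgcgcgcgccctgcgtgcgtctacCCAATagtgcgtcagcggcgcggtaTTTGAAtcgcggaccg
Ttk: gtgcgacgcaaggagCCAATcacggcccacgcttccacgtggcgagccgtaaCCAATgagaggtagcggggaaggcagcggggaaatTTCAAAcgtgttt
Kif15: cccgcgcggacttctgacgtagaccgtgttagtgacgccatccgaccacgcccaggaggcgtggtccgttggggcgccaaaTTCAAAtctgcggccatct
Ccnb2 holds 3 CCAAT boxes and Ttk 2, whereas the Kif15 stretch holds only the cell cycle homology region, read on the reverse strand as in Ttk.

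The NF-kB core, GGG and TTCC with any 3 bases between, was in Ccl20 and Cxcl1, which are 2 of the 3 promoters at hand for the higher chemokine group, against 6.1% of expressed genes and 5.52% of all promoters. The stretches are chr1:83116666-83116765 and chr5:90891145-90891244, both on the plus strand; in Cxcl1 matches on the 2 strands overlap.
Ccl20: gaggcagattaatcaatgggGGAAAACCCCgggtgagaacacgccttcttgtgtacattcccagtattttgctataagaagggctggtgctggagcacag
Cxcl1: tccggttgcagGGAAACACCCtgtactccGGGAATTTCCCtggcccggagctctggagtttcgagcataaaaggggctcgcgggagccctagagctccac
The AP-1 site, TGANTCA, was in 12.7% of promoters of higher genes and 16.9% of those of lower genes, against 4.78% of expressed genes and 7.93% of all promoters. Across all higher genes the other motifs were held by 36.4% (CCAAT), 10.9% (NF-kB), 5.45% (interferon element) and 5.45% (cell cycle homology region). Across all lower genes the shares were 53.5% (CCAAT), 8.45% (NF-kB), 11.3% (interferon element) and 12.7% (cell cycle homology region). A match of letters is a description of the sequence, not of binding.

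The placing of the differences along chromosomes was then described for the 9953 expressed genes with a place in the RefSeq gene order. Chromosomes 9 and 15 differed from the rest in opposite directions. On chromosome 9, 345 of 547 expressed genes (63.1%) were lower in Hi and 31 (5.67%) were higher. On chromosome 15, 236 of 407 (58%) were higher and 32 (7.86%) lower. Over all chromosomes the shares were 32.1% lower and 21.4% higher. The size was small for most genes: the median of the unequal genes was -0.25 on chromosome 9 and 0.20 on chromosome 15, against -0.04 over all.

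**Figure D3:**
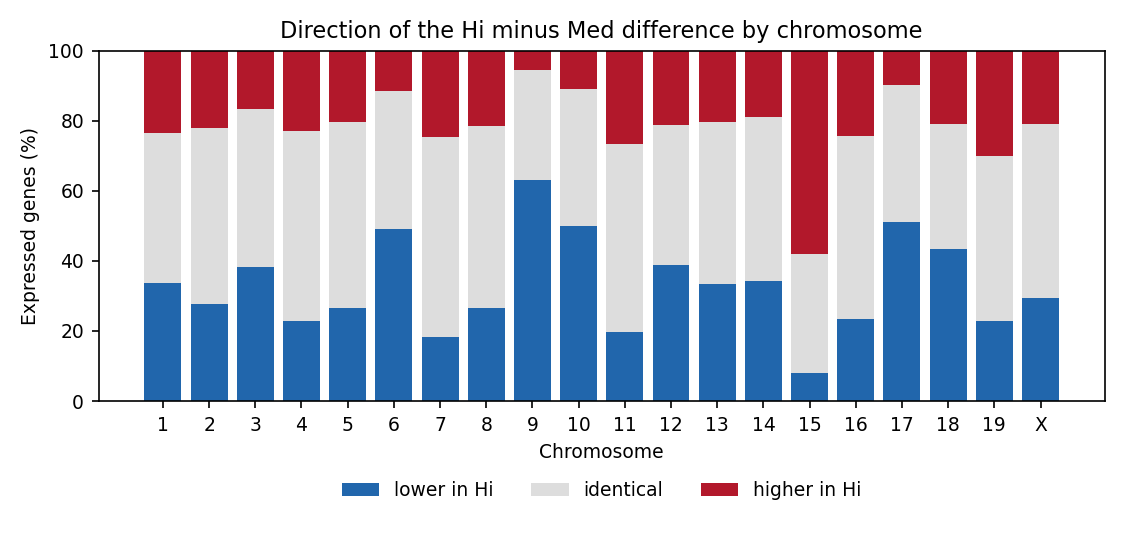
Stacked bars give, for each chromosome, the percentage of expressed genes lower in Hi, identical in both columns and higher in Hi. Chromosome 9 has the tallest lower share (63.1%) and chromosome 15 the tallest higher share (58%).

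Chromosomes 17 (51.1% lower, 9.9% higher), 10 (50% and 10.9%) and 6 (49.2% and 11.7%) also leaned to the lower side, and chromosome 18 had 43.5% lower with 20.9% higher. Outside chromosomes 6, 9, 10, 15 and 17, the 7538 remaining genes were 27.6% lower and 22.6% higher. Chromosomes 7 (18.3% lower, 24.6% higher) and 11 (19.6% and 26.6%) leaned slightly the other way. Chromosome 19 had the next highest share of higher genes after chromosome 15, at 30%.

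The lean did not rest on tiny differences. Counting only differences of at least 0.1, chromosome 9 had 49% lower and 2.93% higher genes and chromosome 15 had 45.5% higher and 4.67% lower, against 21.8% lower and 12.5% higher over all; this cut was chosen with the values known. At a mean level of 10 or more, 59 of 73 genes on chromosome 9 (80.8%) were lower, with a median of -0.27. On chromosome 15, 56 of 77 (72.7%) were higher, with a median of 0.18. Fewer genes were identical at that level: 13.7% against 31.3% of all expressed genes on chromosome 9, and 16.9% against 34.2% on chromosome 15. Medians of the unequal genes changed less, from -0.25 to -0.30 on chromosome 9 and from 0.20 to 0.22 on chromosome 15. Over all chromosomes 42.9% of genes at that level were lower and 29% higher. Below the expression filter chromosome 9 looked like the rest (17.2% lower and 27% higher, against 15.2% and 29.2% over all), and chromosome 15 leaned weakly (39.3% higher).

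Genes 2-fold apart were also more frequent on chromosome 9 than over all. Chromosome 9 held 18 of the 95 lower genes and 3 of the 73 higher ones, so 3.84% of its expressed genes were 2-fold apart, against 1.69% over all. Chromosome 15 held 8 higher and 4 lower genes (2.95%), and chromosomes 18 (2.93%) and 19 (2.72%) had like shares. So had chromosome 1 (3.01%), with 10 higher and 7 lower genes and, over all its genes, 33.8% lower and 23.5% higher. The smallest shares were on chromosomes 8 (0.546%) and 4 (0.646%). With counts this small, the 95% exact binomial interval (Clopper-Pearson) for the share on chromosome 9 ran from 2.39% to 5.81%, and it covers counting only. The interval for chromosome 15, from 1.53% to 5.09%, included the share over all. That for chromosome 1, from 1.76% to 4.77%, lay above the share over all, as did that for chromosome 9. The intervals for chromosomes 4 (0.18% to 1.65%), 7 (0.23% to 1.62%) and 8 (0.11% to 1.59%) lay below it. All of these intervals treat the genes of a chromosome as independent, although neighbouring genes often went the same way. No allowance was made for the number of intervals, so they are not a test of any chromosome.

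Of the 18 lower genes of chromosome 9, 11 lay among the 150 expressed genes at places 251 to 400, 6 at places 1 to 250, 0 at places 401 to 498 and 1 at places 499 to 547. They had unlike functions. Cell division accounted for 7 (Ccnb2, Kif15, Zwilch, Tipin, Cep295, Anln and Ttk) and matrix, adhesion and surface proteins for 5 (Nt5e, Plod2, Cd109, Adamts7 and Plet1). Sema7a, a membrane-anchored semaphorin, read 8.55 and 7.13, Oaf 11.51 and 9.86, and Sh3bgrl2 10.12 and 8.63. On chromosome 15 the 8 higher genes were G930009F23Rik, Rims2, Zfpm2, Oxr1, Trps1, Sqle, Slc45a4 and Igfbp6, all between 1.02 and 1.28. None of the 2-fold acute-phase genes (8), chemokines and colony-stimulating factors (5) or oxidoreductases (11) was on either chromosome. Chromosomes 9 and 15 held only 547 and 407 of the 9953 placed expressed genes, so groups this small would have few members there at that share.

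Some genes ran against their chromosome. On chromosome 15, 4 of the 32 lower genes were 2-fold lower: Wnt1 (-3.49), Ly6e (-2.34), Ttc38 (9.49 to 8.21, -1.28) and Wnt7b (-1.05). On chromosome 9, 3 of the 31 higher genes were 2-fold higher: the ectonucleotidase Entpd3 (6.66 to 8.57), the phospholipase Plcd1 (7.68 to 9.42) and the collagenase Mmp13 (7.17 to 8.41). Both 2-fold lower Wnt ligands thus lay on the chromosome where most genes were higher.

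**Figure D4:**
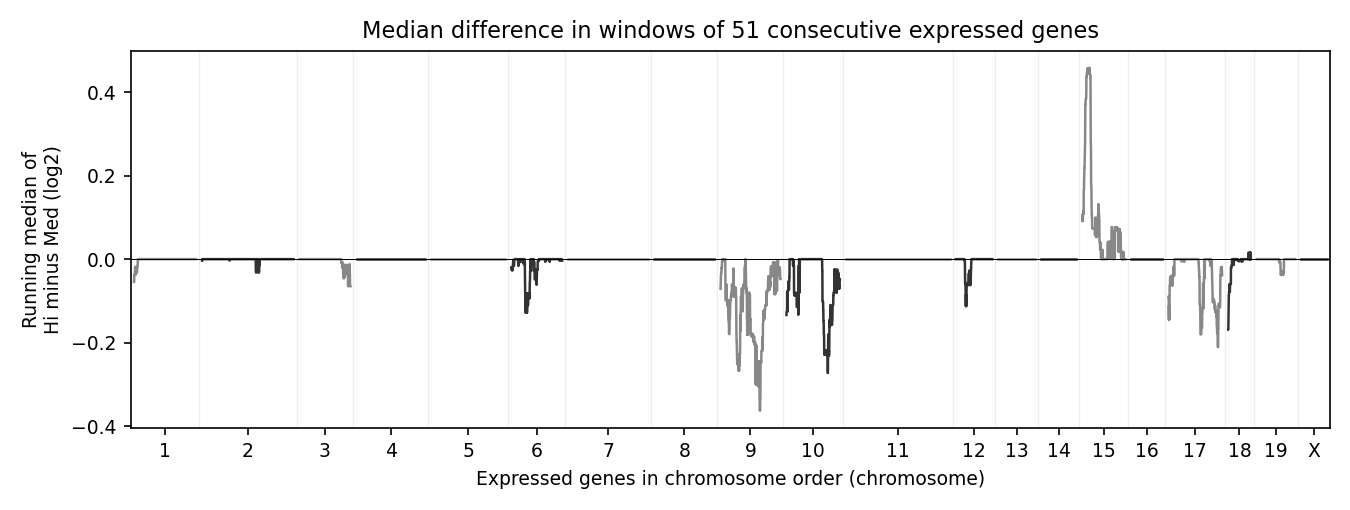
The median Hi minus Med difference (log2) in windows of 51 consecutive expressed genes is drawn along chromosomes 1 to 19 and X, with neighbouring chromosomes in different greys. The line is at or near 0 on most chromosomes, rises to 0.46 on chromosome 15 and falls to -0.36 on chromosome 9, with smaller dips on chromosomes 6, 10, 12, 17 and 18.

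Windows of 51 neighbouring expressed genes showed where on each chromosome the lean lay. Of 8952 windows, 7304 had a median of 0 within the same tolerance. The highest lay on chromosome 15 from Ankrd46 to Trib1, places 55 to 105 of 407, where 40 genes were higher, 6 of them 2-fold, 2 were lower and the median was 0.46. The lowest lay on chromosome 9 from Gsta4 to Slc25a36, places 327 to 377 of 547, where 42 were lower and 2 higher, with a median of -0.36 and 7 genes 2-fold lower. In windows of 25 genes the highest was again on chromosome 15, from Klf10 to Mrpl13, with 23 genes higher and 0 lower (median 0.50), and the lowest again on chromosome 9, from Nt5e to Rasa2 (median -0.46).

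Overlapping windows with a median at least 0.2 from 0 were joined into stretches, a cut set with the values known. On chromosome 15 a stretch ran from Lmbrd2 to Gpr20, places 17 to 122, with 75 genes higher, 8 lower and 23 identical. It held 7 of the 8 higher 2-fold genes of the chromosome: G930009F23Rik, Rims2 (6.85 to 8.02), Zfpm2, Oxr1 (7.94 to 9.06), Trps1, Sqle and Slc45a4 (7.82 to 8.87). Among its other genes, Matn2, a matrix protein (7.55 to 8.39), the respiratory chain subunits Ndufb9 (10.67 to 11.36) and Cox6c (12.44 to 12.96), the Wnt receptor Fzd6 (9.05 to 9.72) and Ywhaz, a 14-3-3 protein (11.29 to 11.69), were higher by less than 2-fold. Pvt1, a long noncoding RNA, was an exception on chromosome 15, at 8.84 and 8.16.

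Chromosome 9 had 2 such stretches. The longer, from Car12 to Slco2a1 (places 282 to 399), held 86 lower, 8 higher and 24 identical genes and 9 that were 2-fold lower: Ccnb2, Tcf12, Cd109, Sh3bgrl2, Ttk, Nt5e, Adamts7, Plod2 and E030011O05Rik. Its exceptions included Gsta4, a glutathione transferase at 9.78 and 10.70. The other, from Upk2 to Cox5a (places 136 to 213), held 54 lower and 2 higher genes, and Plet1 (8.39 to 7.24) was its only 2-fold member. Chromosome 10 had a stretch from S1pr4 to Rab3ip (places 314 to 406 of 494) with 65 lower and 5 higher genes, including the sulfotransferase Chst11 (9.59 to 8.53) and Nav3 (8.74 to 7.73). Chromosome 17 had one from Fer to Dhx57 (places 411 to 461 of 495) with 33 lower and 4 higher. With a cut of 0.1 the chromosome 9 stretches merged into 375 genes, from Tmem205 to Ifrd2, and the chromosome 15 stretch grew to 188 genes, from Fbxo4 to Sh3bp1.

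**Figure D5:**
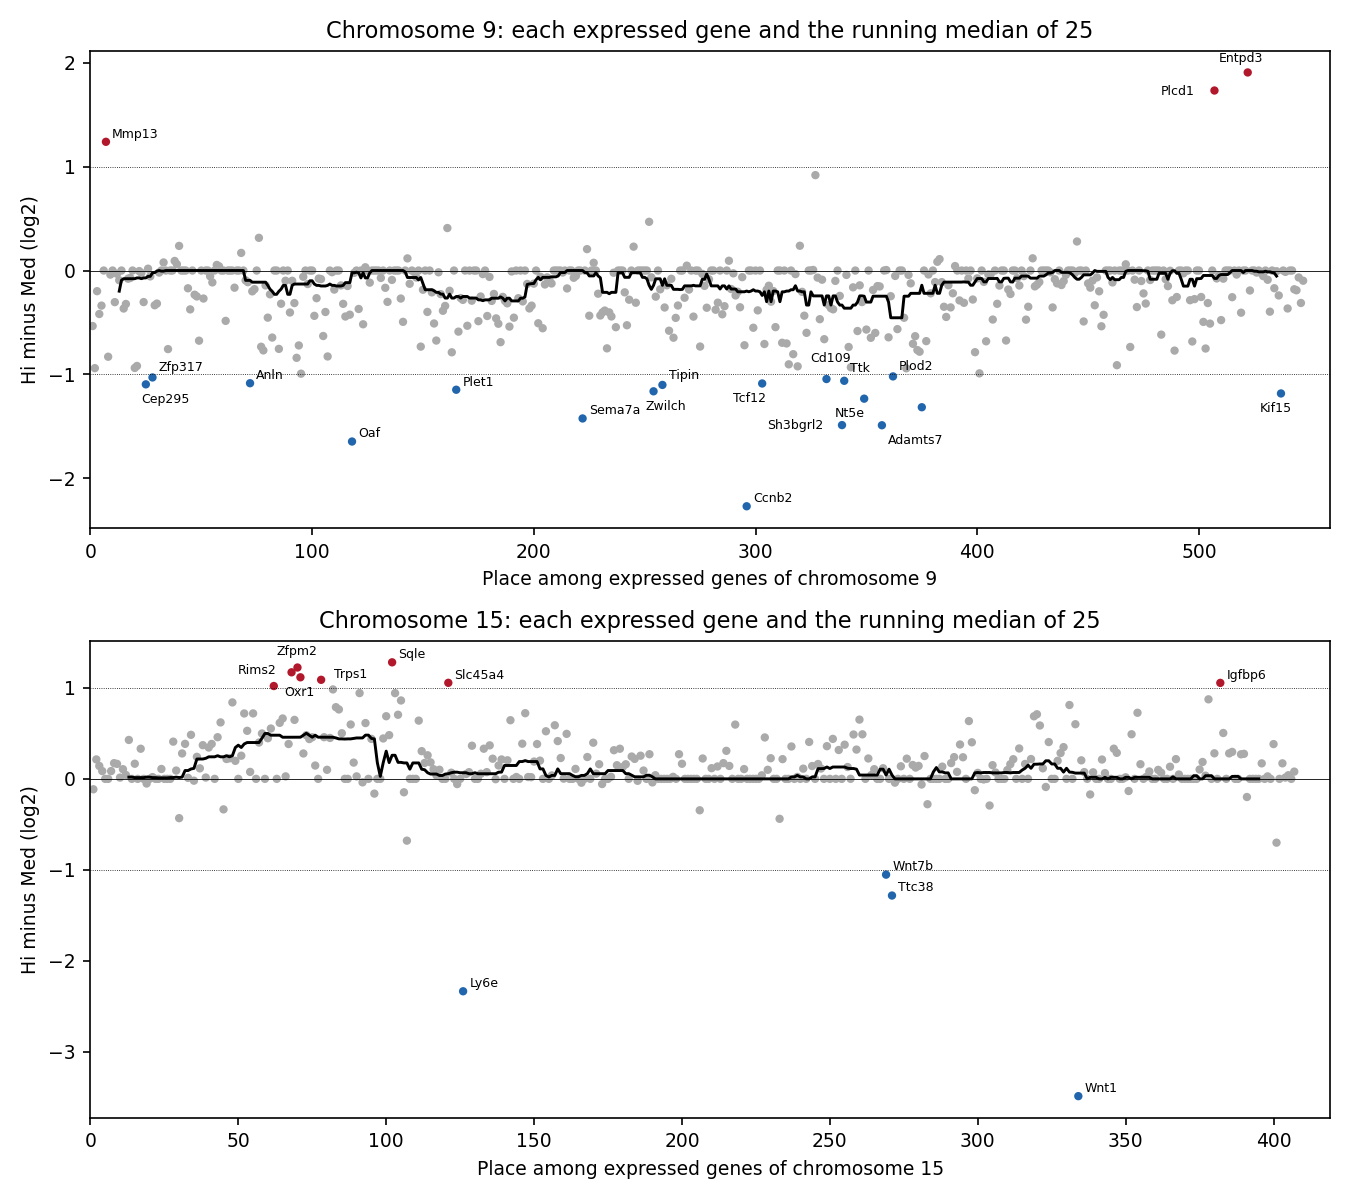
Each point is an expressed gene of chromosome 9 (top) or 15 (bottom) at its place in gene order, with Hi minus Med (log2) on the vertical axis; the black line is the running median of 25 genes, dotted lines mark 2-fold, and 2-fold genes are coloured and, unless clone-named, labelled. On chromosome 9 most points lie at or just below 0 along the whole length, and on chromosome 15 the line is highest among the genes from Klf10 to Mrpl13.

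The lean of the 2 chromosomes differed in shape. Cut into 11 consecutive blocks of 49 or 50 expressed genes, chromosome 9 had between 52% and 76% lower genes in every block, and at most 12% higher. The blocks with most lower genes were Pcsk7 to Pstpip1 and Polr2m to Snx14, both at 76%, with medians of -0.27 and -0.30. Chromosome 15 in 8 blocks had 47.1% to 78.4% higher genes and at most 15.7% lower. The block from Vps13b to Sqle stood far above the others there, with a median of 0.46, while the block medians of the rest were 0 to 0.09. Chromosome 10 was uneven: the block from Washc3 to Phlda1 had 75.5% lower genes, while the blocks from Adarb1 to Atp5d and from Midn to Matk had 26.5% and 16.3%. Chromosome 6 ranged from 32.7% to 58.5% lower without a block that stood apart, and chromosome 17 from 38% to 67.3%. These blocks were laid out with the values known.

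Of the 168 genes 2-fold apart (1.69% of those expressed), 15 stood next to another in the order of expressed genes. They formed 7 runs, and within each run all members went the same way. How many adjacent genes that share alone would give was not worked out. The longest was Ifit2, Ifit3 and Ifit3b on chromosome 19, all lower. Lower pairs were Sh3bgrl2 and Ttk on chromosome 9, and Il17rd (8.97 to 7.74), an inhibitor of FGF signalling, with Arhgef3 on chromosome 14. Higher pairs were Tgm2 and Lbp on chromosome 2, Foxc1 and Gmds (8.85 to 9.88) on chromosome 13, Zfpm2 and Oxr1 on chromosome 15, and Fetub and Kng2 on chromosome 16. Fetub and Kng2 belong to the cystatin superfamily, and the Ifit genes to 1 family; the other pairs are not of a shared family.

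Allowing 1 expressed gene in between raised the count to 22 genes. This joined the chemokines Cxcl5 and Cxcl1 on chromosome 5 across Ppbp, itself higher by 0.55 (7.52 to 8.06), and Rims2 to Zfpm2 across Lrp12, higher by 0.65 (9.05 to 9.70). It also joined Wnt7b and Ttc38 across Cdpf1, which was identical at 7.11, and gave the only run of opposite directions, Upp1 (lower) and Egfr (higher) on chromosome 11. In the order of all named genes, expressed or not, 9 genes stood next to another 2-fold gene.

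Function and place were then crossed. The gene lists held 54 distinct expressed genes on chromosome 9, of which 37 (68.5%) were lower and 4 higher, and 42 on chromosome 15, of which 27 (64.3%) were higher and 8 lower; on all other chromosomes 43.9% of 829 list genes were lower and 28.8% higher. Chromosome 9 members were lower across unlike functions: Elovl5, a fatty acid elongase (10.21 to 9.61), Tgfbr2, the type II TGF-beta receptor (9.15 to 8.66), Gclc, which makes glutathione precursor (9.10 to 8.66), and Rpsa, a ribosomal protein (11.31 to 10.90).

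The cell division difference extended beyond chromosome 9. Without chromosomes 9 and 15, 44 of 49 mitosis and spindle genes were lower and 0 higher, with a median of -0.40, while 31.3% of the remaining 9015 expressed genes were lower. The DNA replication list had no expressed member on either chromosome. The interferon list kept 43 of 50 genes lower, with a median of -0.40, and all 11 expressed acute-phase genes and all 10 chemokines lay elsewhere. So did 9015 of all 9969 expressed genes. Of the 9 keratin and epithelial genes, 3 lay on chromosome 15, and the 6 others were all higher too. The 6 expressed long noncoding RNAs had a median of -0.20, and the 4 off chromosomes 9 and 15 had a median of 0.15. The genes left out were both lower: Snhg5 (8.69 to 8.04) on chromosome 9 and Pvt1, which ran against the lean of chromosome 15.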

How the data were processed

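Expression was measured on Affymetrix arrays from 100 ng of total RNA for each group. The authors deposited normalized values, read as log2, for 35556 probe sets, summarised and normalized before deposit. The log base (not given in the sources used here) was taken from their range, 2.13 to 14.8. Affymetrix Expression Console and GCRMA are named per the submitters' processing notes, with no version, role or order; a normalization between arrays can shift many genes at once. The cause of the identical values in both columns was not tested.

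Probe sets were named through GEO's platform annotation and RefSeq's GRCm38.p6 gene table (21698 of 21789 single-gene probe sets matched by gene number, 99.6%), which also gave the gene order. Probe sets of several genes (1621) or of none (12146) named no gene. Those of 1 gene were averaged. Named are the 15 highest and 15 lowest genes without clone names, members of runs, up to 4 genes of a list, genes at the threshold, the locus genes and 2-fold genes of extreme windows; other names were chosen after their values were seen. Of 1489 genes in 40 lists written from general knowledge, 1354 were matched. Members, lists, function groups and cuts were chosen with earlier results of these data known. With 1 column a group, counts past 2-fold replace tests, and the number of arrays limits precision. The 2-fold counts and chromosome medians were tested on simulated columns with planted differences and no identical values. Lists, windows, runs and motifs were not tested in that way. Alternatives were median centring, quantile and loess scaling (columns, Hi against Med), other filters, the highest probe set and other window lengths. Python 3.11.15, pandas 2.3.3, numpy 2.4.6, scipy 1.17.1, statsmodels 0.14.6 and matplotlib 3.10.9 were used.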

Additional observations from a re-analysis of the deposited data

How the results depend on the processing

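Median centring, quantile normalization and loess gave 71 to 75 genes 2-fold higher and 85 to 96 lower, and no named difference changed sign. The centring moved the differences by only -0.007, so the column medians, 6.650 in Med and 6.660 in Hi as deposited, were not fully aligned. Of the 162 2-fold genes without clone names, 10 fell under 2-fold after quantile normalization (Antxr2, Bend6, Cdh2, Cenph, Enpp5, Lrrc8b, Mad2l1, Nav3, Plod2 and Zfp948), 2 after centring (Ephx1 and Megf10) and 1 after loess (Antxr2). The stricter expression filter (75th percentile) kept 4985 genes and gave 36 higher and 48 lower. Adjacent 2-fold genes numbered 9 with no filter, 8 with the stricter filter and 9 in the order of all named genes. On chromosome 9 the 2-fold share was 1.89% with no filter, against 0.918% of all genes, since genes below the filter were rarely 2-fold apart. The highest window had a median of 0.28 at the longest window length tried. Alternatives chosen after seeing the data left out chromosomes 9 and 15, which gave 62 higher and 73 lower genes. Leaving out a replicate was not possible with 1 column a group. No paired analysis was possible because each group has 1 column. Signal over background limits the folds of the 21 higher genes that read below the filter value in Med and the 8 lower genes that did so in Hi.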

Other observations

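Genes below the expression filter added 15 that were 2-fold apart, 8 higher and 7 lower. C1s1, a complement protease, read 4.74 in Med and 7.02 in Hi. Aox3, an aldehyde oxidase, read 5.60 and 7.18, the water channel Aqp8 6.02 and 7.25, and the actin-severing protein Scin 6.06 and 7.40. Eya2, a transcriptional coactivator and phosphatase, read 6.15 and 7.62. On the lower side the cytokine Il18, a gene of chromosome 9, read 7.01 and 5.35, and the aldose epimerase Galm 7.22 and 5.62. Hao1, a peroxisomal hydroxyacid oxidase, read 7.04 and 5.63. These levels are near the floor of the array in at least 1 column.

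Of the 12146 probe sets listed under no gene, 212 were 2-fold higher and 188 lower, with differences from -3.39 to 3.94. Of the 1621 probe sets listed under several genes, 1 was 2-fold higher and 4 were 2-fold lower. Their genes are not named here.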
